A study of Mus musculus with 8 samples.

Results

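The 10 genes described here are Nfe2l2, Keap1, Hmox1, Nqo1, Gclc, Gclm, Txnrd1, Srxn1, Slc7a11 and Gsr, the mouse genes for the transcription factor NRF2, its repressor KEAP1 and 8 of the enzymes and transporters best known as NRF2 targets. They were chosen by name with earlier results of these data known, so their shares beside all genes are not independent of these data. Each matched 1 of the 53647 gene identifiers counted, and all 10 were among the 15603 genes with enough reads to be tested. RNA came from wild-type mouse myotubes, the multinucleated muscle fibres that form in culture when myoblasts fuse, which were grown from primary myoblasts of pups 2 to 3 days old. The labels give the same wild-type genotype for all groups. They were given IL6, LIF or OSM, each at 250 ng/ml for 48 h, or served as controls, and were collected 72 h after differentiation began. Each of the 4 groups had 2 libraries. The labels do not say whether these came from separate cultures or animals, so the p-values measure only the spread between these libraries, which may be technical.

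IL6, LIF and OSM (oncostatin M) are cytokines of one family whose receptors all contain gp130 and differ in their other subunits. NRF2 is a basic leucine zipper transcription factor. In unstressed cells KEAP1 binds it and presents it to the CUL3 ubiquitin ligase for degradation, and when oxidants or electrophiles modify cysteines of KEAP1, NRF2 accumulates, pairs with small MAF proteins and binds antioxidant response elements near its target genes. Much of this control acts on the protein, so the mRNA of Nfe2l2 or Keap1 is not a measure of NRF2 activity. In skeletal muscle, where contraction and mitochondria produce oxidants, the targets supply glutathione, reduce thioredoxin and detoxify quinones and haem.

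The libraries held between 29482077 and 30025471 gene-assigned reads, with 21358 to 21831 genes detected by 1 read or more. Levels are given as CPM, read counts brought to a common depth with the TMM factors, each library's value in turn, and changes as log2 differences from 1 edgeR quasi-likelihood fit over all 8 libraries, with Benjamini-Hochberg adjustment over all genes of a comparison and a call at an adjusted p under 0.05. Every member had at least 237 reads in every library, a counting error of at most 6.50% of the count. Of the 14 genes of the myotube marker list, all were tested. In RNA from whole cultures, fewer cells of a type and less RNA per cell cannot be told apart.

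For 7 of the 10 members RefSeq windows of 250 bases before to 50 bases after a transcription start were at hand (GRCm38.p6). They are shown for the members that fell with OSM and have one, because these are the stretches next to the starts of the genes whose mRNA moved. The windows lie at chr8:107403156-107403455 (minus strand) for Nqo1, chr3:122245307-122245606 (plus strand) for Gclm, chr10:82858956-82859255 (plus strand) for Txnrd1, chr2:152105274-152105573 (plus strand) for Srxn1 and chr3:50443564-50443863 (minus strand) for Slc7a11. For Txnrd1, which has 3 windows, the one with a match is shown. Capitals mark the core letters of the antioxidant response element, TGACNNNGC, or of its close variant TGAGNNNGC, on either strand. Each sequence reads 5′ to 3′ along the gene's own strand.
Nqo1: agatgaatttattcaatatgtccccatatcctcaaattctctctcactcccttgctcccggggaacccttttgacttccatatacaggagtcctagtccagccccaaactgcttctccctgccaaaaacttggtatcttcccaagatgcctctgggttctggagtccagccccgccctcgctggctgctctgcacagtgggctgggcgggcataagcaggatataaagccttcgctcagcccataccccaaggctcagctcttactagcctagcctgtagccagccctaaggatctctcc
Gclm: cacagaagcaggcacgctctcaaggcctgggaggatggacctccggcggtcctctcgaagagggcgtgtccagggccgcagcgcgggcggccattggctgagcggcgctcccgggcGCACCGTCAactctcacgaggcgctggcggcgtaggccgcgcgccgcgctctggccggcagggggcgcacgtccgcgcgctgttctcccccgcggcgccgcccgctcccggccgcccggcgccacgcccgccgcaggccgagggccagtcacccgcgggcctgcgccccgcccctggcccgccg
Txnrd1: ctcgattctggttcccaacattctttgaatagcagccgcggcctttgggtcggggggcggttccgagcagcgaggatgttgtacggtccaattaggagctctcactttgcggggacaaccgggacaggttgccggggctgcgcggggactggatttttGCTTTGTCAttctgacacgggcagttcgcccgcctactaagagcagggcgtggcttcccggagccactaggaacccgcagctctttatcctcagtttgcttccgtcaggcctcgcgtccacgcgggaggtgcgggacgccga
Srxn1: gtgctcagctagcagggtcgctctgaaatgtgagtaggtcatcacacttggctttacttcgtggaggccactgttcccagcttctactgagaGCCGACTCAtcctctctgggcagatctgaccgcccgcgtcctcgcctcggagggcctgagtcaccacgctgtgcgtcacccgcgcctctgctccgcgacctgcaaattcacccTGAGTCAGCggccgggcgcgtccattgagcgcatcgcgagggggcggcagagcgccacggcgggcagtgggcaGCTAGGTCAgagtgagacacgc
Slc7a11: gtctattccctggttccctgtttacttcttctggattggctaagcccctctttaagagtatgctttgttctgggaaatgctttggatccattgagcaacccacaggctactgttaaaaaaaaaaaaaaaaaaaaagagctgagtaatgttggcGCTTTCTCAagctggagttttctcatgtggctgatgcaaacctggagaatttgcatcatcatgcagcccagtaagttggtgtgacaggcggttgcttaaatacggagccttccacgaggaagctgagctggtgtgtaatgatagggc
TGACNNNGC stood 134 bases before the start of Gclm and 92 bases before that of Txnrd1, on the opposite strand in both. Srxn1 held 3 matches, TGAGNNNGC at 158 bases before its start on the opposite strand and at 45 bases before on its own strand, and TGACNNNGC at 28 bases after it on the opposite strand. Slc7a11 held TGAGNNNGC at 97 bases before its start on the opposite strand. The window of Nqo1 held neither, and neither did that of Keap1, while that of Nfe2l2 itself held TGACNNNGC at 240 bases before its start. Over all 32851 windows of this length, 12.4% held TGACNNNGC, 17.6% held TGAGNNNGC and 27.8% held either, and the 2 patterns cannot match at the same position of 1 strand. A match is only a run of letters, and its absence says only that these letters are not in this window.

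With OSM, 6 of the 10 members fell and none rose, where 21.4% of all genes tested were called (10.6% lower and 10.8% higher). The members that fell were Nqo1, Slc7a11, Gclm, Txnrd1, Srxn1 and Gclc, which stood at 29.0%, 33.6%, 57.6%, 62.8%, 76.5% and 77.3% of their control means. Nfe2l2, Keap1, Hmox1 and Gsr were not called. The calls of Gclc and Srxn1 were lost without the first control library or without the second OSM library. With 1 library left out, their log2 changes ranged from −0.4495 to −0.2843 for Gclc and from −0.4912 to −0.2643 for Srxn1. The median log2 change of the 10 members was −0.38, beside −0.0029 over all genes. With LIF, 3 of the 10 members fell (Nqo1, Txnrd1 and Srxn1) and none rose, where 7.66% of all genes were called (3.46% lower and 4.20% higher), and the members' median was −0.23. With either LIF library left out, 1 member was called. With IL6 no member was called and neither was any other gene (0% by edgeR), although 2 members and 795 genes had an unadjusted p under 0.05, and DESeq2 called 17 genes, none of them a member. Without the second IL6 library edgeR called 2 members, Nqo1 and Txnrd1, and 221 genes in all.

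**Figure D1:**
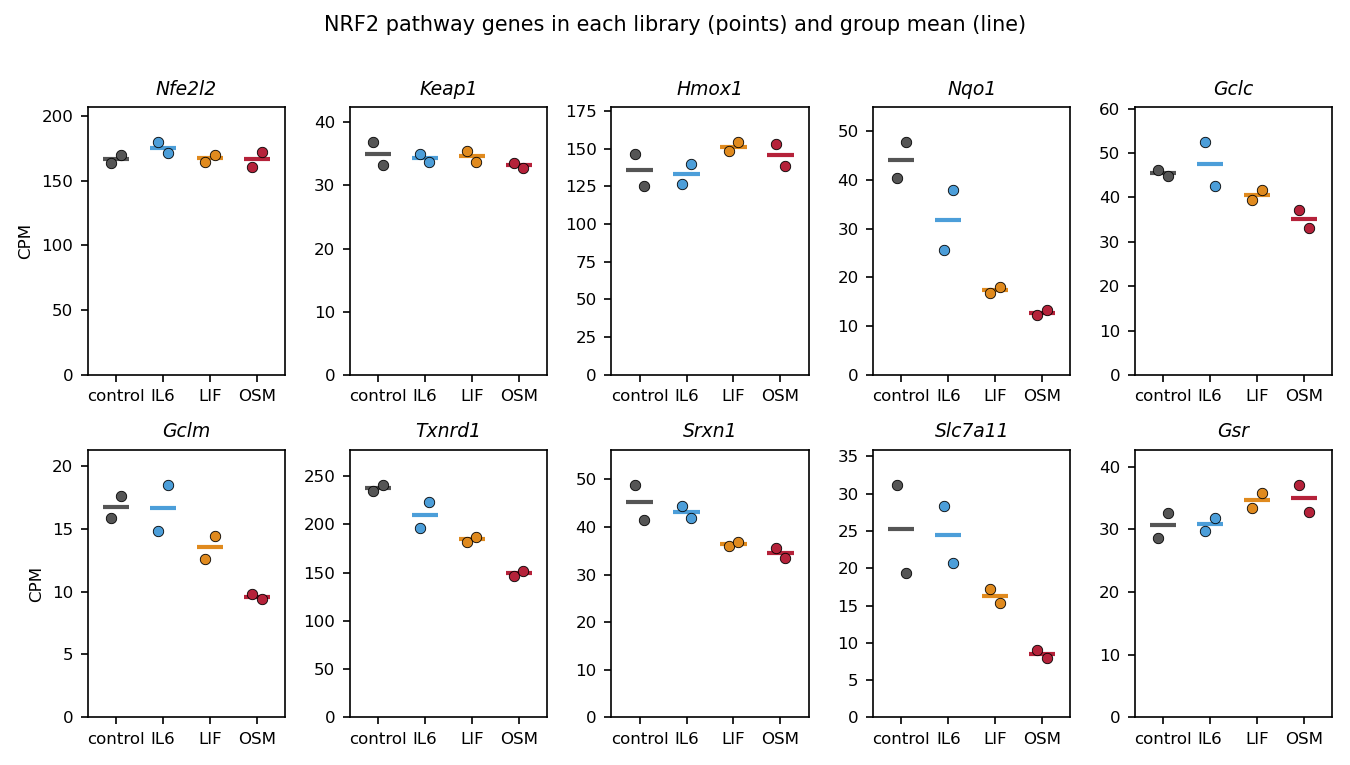
Level of each of the 10 genes (CPM, linear axes that start at 0) in control, IL6, LIF and OSM libraries. Points are the 2 libraries of a group and the line is their mean; Nqo1, Slc7a11, Gclm and Txnrd1 are lowest in both OSM libraries, while for Nfe2l2 and Keap1 control and OSM libraries overlap.

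The summed levels of markers of several cell types differed between the groups. These sums were not tested, and the most abundant genes weigh most in them. The calls below stand beside 10.8% of all genes called higher and 10.6% lower with OSM. With LIF these shares were 4.20% and 3.46%. The 6 myoblast markers, all tested, summed to 959 to 988 CPM in control, 985.63 to 985.71 CPM with IL6, 1139.5 to 1183 CPM with LIF and 1126 to 1154 CPM with OSM, and 3 of them were called higher with OSM and 1 with LIF. The 10 fibroblast markers, of which 5 were tested and Lum and Tcf21 were at 0 in all libraries, summed to 1653 to 1717 CPM in control, 1504 to 1704 CPM with IL6, 1984 to 2047 CPM with LIF and 2059 to 2167 CPM with OSM, and 2 were called higher with OSM and 1 with LIF. The 10 macrophage markers, of which 4 were tested, summed to 9.13 to 10.3 CPM in control, 11.2 to 16.3 CPM with IL6, 15.6 to 16.0 CPM with LIF and 15.6 to 17.4 CPM with OSM, with Cd68 and Mrc1 called higher with OSM and Mrc1 with LIF. Aif1 was at 0, and 6 of the 10, Adgre1, Csf1r and Ptprc included, were under 1 CPM in every library. The 6 adipocyte markers summed to 0.480 to 0.571 CPM in control and 1.31 to 1.64 CPM with OSM, with Fabp4 the 1 tested and called higher, and the endothelial and Schwann cell markers reached at most 6.44 and 7.63 CPM, with Mbp of the latter called higher with OSM. The 14 myotube markers summed to 30460 to 31896 CPM in control, 27450 to 29467 CPM with IL6, 27650 to 29183 CPM with LIF and 27139 to 27324 CPM with OSM, with 3 called lower with OSM, 2 lower with LIF and none higher in either. No marker was called with IL6, although its myotube and macrophage sums lay outside the control range too. The part of these shifts in the changes of the members was not tested.

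In control myotubes the members covered a wide range of levels per length of exon. Hmox1 was highest at 77.6 CPM per kilobase, followed by Nfe2l2 at 43.9, Txnrd1 at 33.5, Nqo1 at 28.4, Srxn1 at 16.0, Gclc at 12.1, Gsr at 11.1, Keap1 at 7.46, Gclm at 2.65 and Slc7a11 at 1.81. The 2 control libraries of neighbours in this order did not overlap, but Gclc, at 12.2 and 11.9 CPM per kilobase, and Gsr, at 10.4 and 11.9, came within 1 SD of each other. The modifier subunit of glutamate-cysteine ligase, Gclm, had a lower level per length than the catalytic subunit, Gclc.

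Nfe2l2 mRNA was at 163 and 170.0 CPM in the 2 control libraries, 179.6 and 171 CPM with IL6, 165 and 170.0 CPM with LIF and 161 and 172 CPM with OSM. LIF and OSM libraries overlapped the control libraries and both IL6 libraries lay slightly above them. The log2 difference between OSM and control was −0.0025 (SE 0.061, adjusted p 0.985). Keap1 was at 36.8 and 33.2 CPM in control, 35.0 and 33.8 CPM with IL6, 35.5 and 33.7 CPM with LIF and 33.6 and 32.8 CPM with OSM. Its values lay within a narrow band in every group, with a difference of −0.077 (SE 0.078, adjusted p 0.536) for OSM against control. With LIF the differences from control were 0.0054 (SE 0.061, adjusted p 0.979) for Nfe2l2 and −0.017 (SE 0.077, adjusted p 0.942) for Keap1. In the mouse annotation 10.9% of the exon bases of Keap1 overlap another gene on either strand. Whether this affects the count of Keap1 was not tested.

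Nqo1, a quinone reductase that uses NADPH or NADH to make hydroquinones and is a widely used readout of NRF2, had the largest change of the members. It was at 40.4 and 47.7 CPM in control, 25.6 and 37.9 CPM with IL6, 16.8 and 18.0 CPM with LIF and 12.3 and 13.3 CPM with OSM. All LIF and OSM libraries lay below all control and IL6 libraries, and both IL6 libraries lay below both control libraries. The log2 change was −1.79 (SE 0.17, adjusted p 3.31e-05) for OSM and −1.34 (SE 0.16, adjusted p 0.000919) for LIF. With IL6 it was −0.47 (SE 0.15, adjusted p 0.943), not called, and leaving out the second IL6 library gave −0.78 (adjusted p 0.00339), while a fit with no filter on low counts gave −0.48 (adjusted p 0.000332). The difference between OSM and LIF was −0.44 (SE 0.17, adjusted p 0.176), not called. It was called with no filter on low counts (adjusted p 0.000818), in a fit of the 2 groups alone (0.00137), with a replicate block and without the first or the second IL6 library (0.0108 and 0.00953). That between LIF and IL6 was −0.87 (SE 0.16, adjusted p 0.0225), and its adjusted p became 0.208 without the first LIF library and 0.152 without the second.

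Glutathione is made from glutamate, cysteine and glycine, and the cystine that supplies the cysteine enters through the exchanger xCT, which Slc7a11 encodes. Slc7a11 was at 31.2 and 19.3 CPM in control, 28.3 and 20.7 CPM with IL6, 17.2 and 15.3 CPM with LIF and 9.03 and 7.95 CPM with OSM. Relative to its level, the control libraries differed more than those of any other member (coefficient of variation 33.2%), yet both OSM libraries lay below all 6 others. The change with OSM was −1.57 (SE 0.24, adjusted p 0.00185), and it was −1.19 (adjusted p 0.000511) without the first control library and −1.87 (adjusted p 8.45e-06) without the second. With LIF it was −0.63 (SE 0.22, adjusted p 0.149), not called. A fit with no filter on low counts called it (adjusted p 0.00526), as did a replicate block, and the value moved with the control library used. It was −0.93 (adjusted p 0.00504) without the second control library and −0.25 (adjusted p 0.505) without the first. OSM against LIF gave −0.94 (SE 0.25, adjusted p 0.0539), which was not called. It was called under 9 of the alternatives: DESeq2 (0.0294), DESeq2 size factors (0.0483), no filter on low counts (0.000144), a fit of the 2 groups alone (1.23e-06), a replicate block, and the omission of the first or second control library (0.00145 and 0.00159) or the first or second IL6 library (0.0373 and 0.0448).

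Glutamate-cysteine ligase, which joins glutamate to cysteine in the rate-limiting step, is a pair of a catalytic subunit (Gclc) and a modifier subunit (Gclm). Gclm was at 15.8 and 17.6 CPM in control, 14.9 and 18.5 CPM with IL6, 12.6 and 14.4 CPM with LIF and 9.82 and 9.40 CPM with OSM. Both OSM libraries lay below every other library, with a change of −0.80 (SE 0.13, adjusted p 0.000517) against control and −0.49 (SE 0.13, adjusted p 0.0313) against LIF. The latter was lost without either LIF library or either OSM library (adjusted p 0.0848, 0.262, 0.183 and 0.209). Gclc was at 46.1 and 44.8 CPM in control, 52.4 and 42.7 CPM with IL6, 39.5 and 41.8 CPM with LIF and 37.1 and 33.1 CPM with OSM. Its change with OSM was −0.37 (SE 0.096, adjusted p 0.0146), and the call was lost without the first control library (adjusted p 0.0627) or the second OSM library (adjusted p 0.165). Whether the changes of the subunits differ was not tested.

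Gsr, glutathione reductase, returns oxidised glutathione to its reduced form with NADPH. It was at 28.6 and 32.7 CPM in control, 29.8 and 31.9 CPM with IL6, 33.5 and 35.8 CPM with LIF and 37.1 and 32.8 CPM with OSM. All LIF and OSM libraries lay above both control libraries, the second OSM library only narrowly (32.82 beside 32.67 CPM, within its counting error of 3.2%). The difference of Gsr from control had the opposite sign to that of the synthesis genes. It was 0.19 (SE 0.091, adjusted p 0.165) for OSM and 0.18 (SE 0.091, adjusted p 0.302) for LIF, and neither was called.

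Txnrd1, the cytosolic selenoenzyme that reduces thioredoxin, had the smallest error of the members that fell. It was at 234 and 241 CPM in control, 196 and 223 CPM with IL6, 182 and 187 CPM with LIF and 147 and 152 CPM with OSM. The groups followed one another without overlap, from control through IL6 and LIF down to OSM. The change was −0.67 (SE 0.067, adjusted p 8.51e-06) for OSM, −0.37 (SE 0.066, adjusted p 0.00436) for LIF and −0.18 (SE 0.066, adjusted p 0.943) for IL6. Without the second IL6 library the IL6 difference was called (adjusted p 0.0456), and the LIF call was lost without either LIF library (adjusted p 0.0752 and 0.059). The difference between OSM and LIF was −0.31 (SE 0.067, adjusted p 0.0115), a call that was lost without either LIF library or either OSM library (adjusted p 0.0995, 0.132, 0.183 and 0.0816).

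Srxn1, sulfiredoxin, restores peroxiredoxins whose catalytic cysteine has been over-oxidised. It was at 48.8 and 41.5 CPM in control, 44.4 and 41.9 CPM with IL6, 36.0 and 36.7 CPM with LIF and 35.5 and 33.5 CPM with OSM. LIF and OSM libraries lay together below the others, at −0.39 (SE 0.085, adjusted p 0.0053) for OSM and −0.31 (SE 0.085, adjusted p 0.039) for LIF, and OSM against LIF gave −0.075 (SE 0.086, adjusted p 0.704). The OSM call was lost without the first control library (adjusted p 0.0608) or the second OSM library (0.0751). The LIF call was lost without the first control library (0.276), without either LIF library (0.245 and 0.214) and without either OSM library (0.0732 and 0.0726), and in a fit of the 2 groups alone the adjusted p was 0.0593.

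Hmox1, haem oxygenase 1, breaks haem down to biliverdin, iron and carbon monoxide, and is a target of NRF2 that BACH1 represses. It was at 146 and 125 CPM in control, 127 and 140.1 CPM with IL6, 148 and 154 CPM with LIF and 153 and 139 CPM with OSM. The IL6 and OSM libraries overlapped those of control and both LIF libraries lay slightly above them. The difference was 0.10 (SE 0.082, adjusted p 0.417) for OSM and 0.15 (SE 0.082, adjusted p 0.322) for LIF, neither of them called. Bach1 was at 86.6 CPM in control and 88.8 CPM with OSM, a difference of 0.037 (log2, SE 0.059, adjusted p 0.716).

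**Figure D2:**
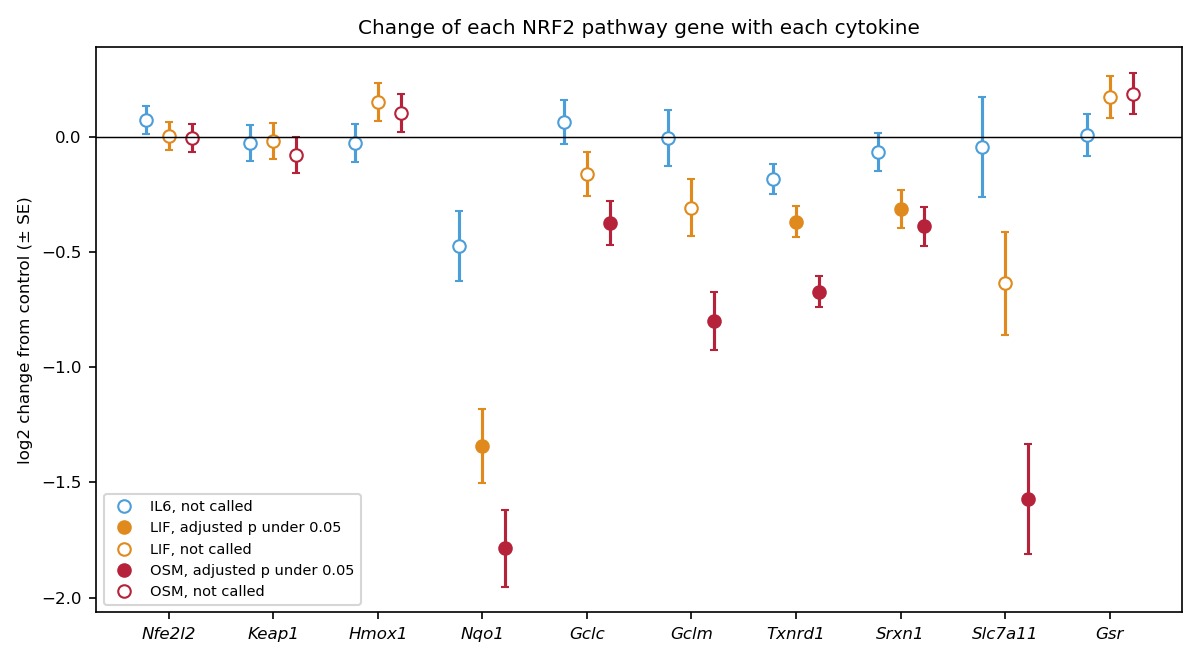
Log2 change of each member against control with IL6, LIF and OSM. Points are the fitted changes and bars their standard errors; filled points passed an adjusted p under 0.05, which no member did with IL6, 3 did with LIF and 6 did with OSM.

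The 3 cytokine comparisons share their control libraries, so they are set out side by side without a measure of how alike they are. OSM was compared with LIF directly, and 2 of the 10 members were called lower (Gclm and Txnrd1) and none higher, where 8.04% of all genes were called (4.04% lower and 4.01% higher). OSM against IL6 gave the same 6 members called lower as OSM against control, where 15.5% of all genes were called (7.52% lower and 8.02% higher). Without the first IL6 library the adjusted p of that comparison was 0.0546 for Gclc and 0.0796 for Srxn1, and without the second OSM library it was 0.112 and 0.179. Srxn1 was also lost without the first OSM library (0.0888). LIF against IL6 gave 1 member, Nqo1, called lower, where 2.78% of all genes were called (1.02% lower and 1.76% higher).

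Among the members that fell, the Pearson correlation of log2 CPM over the 8 libraries ran from 0.69 for Nqo1 and Gclc to 0.97 for Nqo1 and Txnrd1. These 8 points share their 4 treatments, so the values describe group levels more than library-to-library variation. The members compared were also taken because they fell with OSM, so positive values follow in part from that choice. By the same correlation, which compares pattern and not level, the highest 3 of 10848 genes were taken for each member that fell. They were Acat1, Adgrb2 and Fam198b for Nqo1 (0.99 each), and Ssrp1, Slc7a1 and Lmnb2 for Slc7a11 (0.99 each). For Txnrd1 they were Prps1, Col18a1 and Mest (0.99 each), and for Srxn1 they were Tbl1x, Rap1gap2 and Gar1 (0.99 each). For Gclm they were Haus6, Zbtb18 and Heph (0.98 each), and for Gclc they were Uba2, Srbd1 and Fdft1 (0.98, 0.98 and 0.97). Slc7a1 is a transporter of cationic amino acids and stands in the amino-acid response list below, and Heph is a ferroxidase.

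Wider lists of genes of the same pathways, also chosen with earlier results of these data known, were counted next. Of 13 further regulators of NRF2 all were tested, and with OSM 2 rose and 1 fell (median log2 change −0.076, beside −0.0029 over all genes). That is 15.4% higher and 7.69% lower, beside 10.8% and 10.6% of all genes, which holds as the background for every list with OSM. Maff, a small MAF partner, rose by 0.55 on the log2 scale (adjusted p 0.000134) and the repressor Bach2 by 0.53 on the log2 scale (adjusted p 0.0139), while Nfe2l3, a relative of NRF2, fell by 0.71 on the log2 scale (adjusted p 0.0383). Maff was at 71.6 and 62.9 CPM in control, 72.6 and 66.8 CPM with IL6, 73.1 and 72.3 CPM with LIF and 100.4 and 95.9 CPM with OSM, so that both OSM libraries were above the rest, and it was also called for OSM against LIF. With LIF, 1 fell and none rose, Trim16 at −0.42 (log2, SE 0.093, adjusted p 0.0131). Cul3, the scaffold of the ligase that acts on NRF2, was not called with OSM (0.040 in log2, SE 0.056, adjusted p 0.671).

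Of the 14 listed genes of glutathione synthesis and recycling besides the members, 11 were tested, and with OSM 3 fell (27.3%) and 1 rose (9.09%), with a median of −0.22. Cth, cystathionine gamma-lyase, which makes cysteine from cystathionine, changed by −0.84 (log2, SE 0.14, adjusted p 0.000902). Slc3a2, the heavy chain that pairs with xCT, changed by −0.60 (log2, SE 0.071, adjusted p 4.04e-05). It was at 339 and 296 CPM in control, 300.0 and 312 CPM with IL6, 312 and 292 CPM with LIF and 205 and 213 CPM with OSM. Both OSM libraries lay well below all others, and the second LIF library lay just below the lowest control library. Chac1, which degrades glutathione, changed by −0.49 (log2, SE 0.11, adjusted p 0.00797), and Glrx, a glutaredoxin, by 0.64 (log2, SE 0.11, adjusted p 0.000887). None was called with LIF. OSM against LIF called Slc3a2 and Cth lower and Glrx higher.

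Of 26 listed glutathione peroxidases and transferases 19 were tested, and with OSM 2 rose (10.5%) and 1 fell (5.26%), at or under the shares of all genes, with a median of −0.040. Mgst1, a microsomal transferase, changed by 1.04 (log2, SE 0.19, adjusted p 0.00137), Gpx8, a peroxidase of the endoplasmic reticulum, by 0.58 (log2, SE 0.063, adjusted p 1.76e-05), and Gsta4, which conjugates 4-hydroxynonenal, by −0.64 (log2, SE 0.15, adjusted p 0.00921). None was called with LIF. All 15 genes of the thioredoxin and peroxiredoxin list were tested, and with OSM 3 rose (20%) and 1 fell (6.67%), with a median of 0.041. The peroxiredoxins Prdx5, Prdx4 and Prdx2 rose by 0.46, 0.23 and 0.20 on the log2 scale, and Prdx6 changed by −0.35 (log2, SE 0.065, adjusted p 0.00184). On either strand, 19.1% of the exon bases of Prdx5 overlap Trmt112 and 11.5% of those of Prdx2 overlap other genes. This may make their values less certain. None of this list was called with LIF.

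Of 26 listed genes of quinone, aldehyde and carbonyl detoxification 22 were tested, and with OSM 5 rose (22.7%) and 4 fell (18.2%), with a median of −0.070. The carboxylesterase Ces2g had the largest change, −3.02 (log2, SE 0.26, adjusted p 1.91e-06), and was at 5.01 and 7.39 CPM in control, 4.56 and 5.67 CPM with IL6, 3.46 and 3.62 CPM with LIF and 0.718 and 0.805 CPM with OSM. Aldh3a1, an aldehyde dehydrogenase, changed by −1.52 (log2, SE 0.23, adjusted p 0.00068), from 8.30 and 13.8 CPM in control to 4.21 and 3.52 CPM with OSM. Akr1b3, aldose reductase, rose by 0.62 on the log2 scale (adjusted p 0.000371). Ugt1a7c, a glucuronosyltransferase, rose by 1.53 on the log2 scale (adjusted p 0.0264), but its counts were low. It had 6 and 8 reads in the control libraries and 23 and 18 in the OSM libraries. Most of its exon bases (54.6% by overlap, 69.3% by identical stretches) are also shared with other genes of its cluster. With LIF 2 fell, Aldh3a1 (−1.42 in log2, SE 0.23, adjusted p 0.00342) and Ces2g (−0.81 in log2, SE 0.20, adjusted p 0.0278), and 2 rose, Akr1b3 (0.54 in log2, SE 0.090, adjusted p 0.00315) and Akr1b8 (0.29 in log2, SE 0.072, adjusted p 0.0257), which is 9.09% each way, beside 3.46% of all genes lower and 4.20% higher with LIF. The calls went in both directions, and 13 of the 22 genes were not called with OSM. OSM against LIF called only Ces2g, lower.

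Of 10 listed genes that supply NADPH 9 were tested, and with OSM 2 fell (22.2%) and none rose, with a median of −0.10. They were Me1, malic enzyme (−0.38 in log2, SE 0.074, adjusted p 0.00243), and Taldo1, transaldolase (−0.29 in log2, SE 0.059, adjusted p 0.00336). Stretches identical to other genes make up 32.8% of Me1 and 10.9% of Taldo1. All 10 genes of haem and iron handling were tested, and with OSM 2 fell and 2 rose (20% each), with a median of −0.19. They were the iron exporter Slc40a1 (−0.59 in log2, SE 0.15, adjusted p 0.0149), biliverdin reductase Blvra (−0.43 in log2, SE 0.11, adjusted p 0.0105), Alas1, the first enzyme of haem synthesis (0.33 in log2, SE 0.064, adjusted p 0.00226), and Fech, the last (0.23 in log2, SE 0.063, adjusted p 0.019). With LIF only Fech was called of these 2 lists (0.25 in log2, SE 0.063, adjusted p 0.0275). None of the 5 superoxide dismutase and catalase genes was called with OSM or LIF, and of 11 listed NADPH oxidase genes 3 had enough reads to be tested and none was called.

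**Figure D3:**
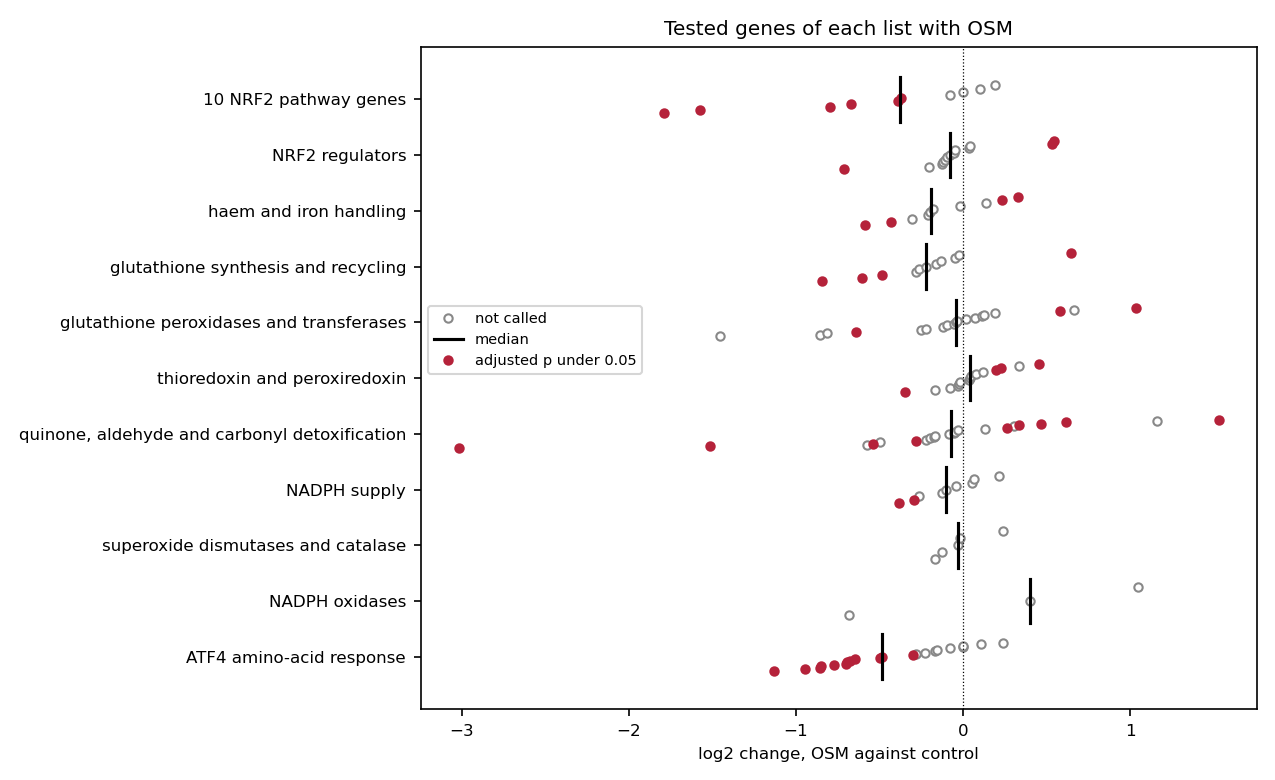
Log2 change with OSM against control of every tested gene in the 10 members and the 10 wider lists, 1 row per list. Filled points passed an adjusted p under 0.05 and the bar is the list's median; 8 of the 10 members, 19 of 21 amino-acid response genes and 10 of 11 glutathione synthesis genes lie below 0, NADPH supply has 2 lower calls, the superoxide dismutase and NADPH oxidase lists have none, and the other lists hold calls in both directions.

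Slc7a11 is a target of both NRF2 and ATF4, the factor that cells make when amino acids are short. A list of 22 ATF4 response genes was counted beside the members, and a role of ATF4 in their changes was not tested. Of these 21 were tested, and with OSM 12 fell and none rose, with a median of −0.49, so 57.1% were called lower. Trib3, a pseudokinase, changed by −1.13 (log2, SE 0.11, adjusted p 4.31e-05), Mthfd2, of mitochondrial folate metabolism, by −0.94 (log2, SE 0.092, adjusted p 1.28e-05), Asns, asparagine synthetase, by −0.86 (log2, SE 0.073, adjusted p 1.96e-06), and Phgdh, of serine synthesis, by −0.85 (log2, SE 0.10, adjusted p 0.000119). Stretches identical to other genes make up 63.1% of Phgdh. Trib3 was at 136 and 107 CPM in control, 110.4 and 119 CPM with IL6, 115 and 95.1 CPM with LIF and 54.7 and 56.6 CPM with OSM, and Asns was at 436 and 374, 380.3 and 383, 321 and 299 and 222 and 225 CPM in the same order of groups. In both genes the OSM libraries lay below all others, and in Asns the LIF libraries lay between.

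With LIF, 3 of the 21 fell (14.3%, beside 3.46% of all genes) and none rose: Asns (−0.39 in log2, SE 0.072, adjusted p 0.00538), Phgdh (−0.39 in log2, SE 0.10, adjusted p 0.0374) and Mthfd2 (−0.37 in log2, SE 0.091, adjusted p 0.0272). OSM against LIF called 8 of the 21 lower (38.1%, beside 4.04% of all genes) and none higher, and IL6 called none. The first control library had the higher value of the 2 for 19 of the 21 genes, as it had for Slc7a11. The first library was also the higher for 19 of the 21 with LIF, and for 12 with IL6 and 11 with OSM. With either control library left out, the number of the 21 that fell with OSM changed. It was not compared with the number of all genes called in the same fits. Chac1 stands in both this list and that of glutathione synthesis, and Sesn2 in both this list and that of thioredoxin.

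**Figure D4:**
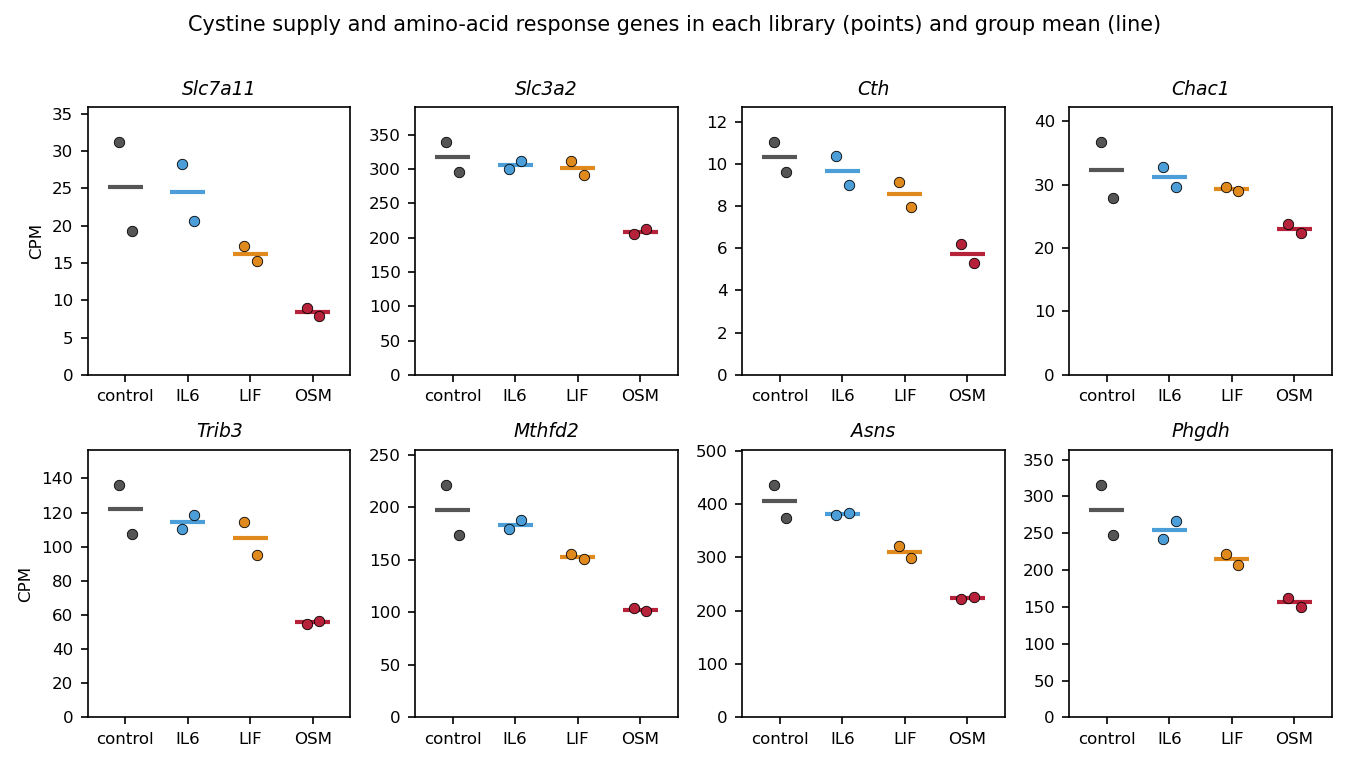
Level (CPM, linear axes that start at 0) of Slc7a11, Slc3a2, Cth and Chac1 of cystine and glutathione supply and of Trib3, Mthfd2, Asns and Phgdh of the amino-acid response in every library. Points are libraries and lines are group means. In all 8 genes both OSM libraries lie below all 6 others, and the first control library is the higher of its pair. All 8 are genes called lower with OSM, so their low OSM values follow largely from this choice.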

How the data were processed

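Poly(A) RNA of 8 libraries, 2 in each of 4 groups, was sequenced with a stranded mRNA kit, per the labels' protocols. The deposited values are whole-number read counts per gene, 1 table per library, made by the authors, whose processing notes name Trim Galore 0.6.5, STAR 2.7.3a, HTSeq 0.11.1 and GRCm39. Alignments assigned to no gene, 11.7% to 12.7% of a library, were left out. Of 53647 Ensembl identifiers 52093 matched a symbol. Symbols, exon lengths and overlaps between genes came from GENCODE on GRCm38, another build, so no coordinates were taken from the counts. Identical stretches are of 50 bases, and both these and the overlaps were counted without regard to strand, although the libraries were stranded.

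Genes were tested with edgeR 4.0.16 (quasi-likelihood F test, TMM, filterByExpr with a minimum count of 10, group means over all 8 libraries, 4 residual degrees of freedom, robust), with Benjamini-Hochberg adjustment within each comparison over 15603 genes. The common biological coefficient of variation was 6.42%. The alternatives were DESeq2 1.42.0, its size factors, no filter, fits of the 2 groups alone, a replicate block, a 2-fold minimum and the omission of each library. The code was tested on simulated counts. The members and lists were chosen with earlier results of these data known. All members are named, and of each list up to 4 called genes with the largest change with OSM and any gene called with LIF among the 2 largest. The 3 genes most like a member were sought among genes with a mean count of at least 100. Bach1, Cul3 and Akr1b8 fall outside that rule and were named after their values were seen. Nnt and Ddit3 match more than 1 identifier and were left out. RefSeq windows for Hmox1, Gclc and Gsr were not used here.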

Additional observations from a re-analysis of the deposited data

How the results depend on the processing

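Of the members called in a comparison, none changed direction under any of the alternatives run. With a 2-fold minimum the calls were 763 genes and 2 members for OSM against control, 176 and 1 for LIF against control, 283 and 0 where OSM was set against LIF, 553 and 2 against IL6, and 65 and 0 for LIF against IL6. For IL6 against control, DESeq2 called 17 genes, and with no filter on low counts edgeR called 97 genes and 1 member. Without the filter 985 genes and 2 members were called for LIF against IL6, beside 434 genes and 1 member in the main fit. For OSM against LIF 4 members were called without it, and the count of all genes in that fit is not given here. Of the lists, haem and iron handling went from 4 to 7 genes called with OSM without the filter, and the ATF4 list from 3 to 7 with LIF and from 8 to 14 between OSM and LIF. The ATF4 count for OSM against control, run under the other alternatives after seeing the data, was 10 to 16. These list counts are given without the number of all genes called in the same fits. A shift in a list therefore cannot be told apart from a shift over all genes. Fitting only the 2 groups gave 2928 genes and 5 members for OSM against LIF. The cause of these shifts was not tested, apart from the 2-fold minimum, which asks for more by construction.

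Replicate numbers are shared between groups, but nothing in the labels pairs them. The correlation of the difference between replicates 1 and 2 ran from 0.00708 to 0.181 over pairs of groups. With a replicate block, 9 genes were called for IL6 against control. For LIF against control 1670 genes and 4 members were called (Slc7a11 added, adjusted p 0.00167), beside 1195 genes in the main fit. For OSM against LIF 1760 genes and 4 members were called (Slc7a11 at 7.15e-05 and Nqo1 at 0.0143 added), beside 1255 genes in the main fit. For LIF against IL6 the block gave 826 genes and 2 members, beside 434 genes in the main fit. Calls over all genes thus rose along with those of the members.

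Leaving out 1 library at a time gave 1622 to 4067 genes for OSM against control, 316 to 1688 for LIF against control, 0 to 221 for IL6 against control, 437 to 1764 for the comparison of OSM with LIF, 1105 to 2713 for that of OSM with IL6 and 82 to 739 for LIF against IL6. The members called ranged from 1 to 4 for LIF against control, 0 to 2 for IL6 against control, 0 to 4 for OSM against LIF and 0 to 2 for LIF against IL6. In these fits the lone library is assumed to vary like the other groups.

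Among the differences followed through the alternatives, changes of sign occurred only in those that were not called. Nfe2l2, Keap1, Hmox1 and Gsr were not followed for OSM against IL6 or LIF against IL6. For OSM against control, Nfe2l2 was 0.0003 with DESeq2, 0.0036 without the filter and −0.0439 to 0.05 with 1 library left out. For LIF against control, Nfe2l2 ranged from −0.0226 to 0.0388 and Keap1 from −0.0853 to 0.0603. For IL6 against control, Gclm was 0.0002 with only the 2 groups. Leaving out 1 library, the IL6 differences ranged from −0.0966 to 0.0516 for Keap1, −0.1337 to 0.0910 for Hmox1, −0.0904 to 0.2060 for Gclc, −0.1696 to 0.1466 for Gclm, −0.1765 to 0.0571 for Srxn1, −0.3466 to 0.3406 for Slc7a11 and −0.0847 to 0.1085 for Gsr. For OSM against LIF they ranged from −0.0515 to 0.0423 for Nfe2l2, −0.1213 to 0.0251 for Hmox1 and −0.0742 to 0.1043 for Gsr.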
